A study of Danio rerio with 2 samples.

Results

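The respiratory chain was described here through every gene whose deposited symbol begins with mt-, nduf, uqcr, atp5, cox and a digit, or sdh followed by a, b, c or d. In all, 109 rows of 33733 matched, which is 106 genes of 29358 after rows with the same symbol were summed. Of these, 13 lie in the mitochondrial genome and 93 in the nucleus. The 93 comprise 78 genes named for subunits of complexes I to V and 15 named for factors that help to assemble them. A total of 105 genes reached a mean of 1 FPKM (fragments scaled to gene length and library size). The exception was ndufs8b, at 0.410 FPKM in the mutant library and listed at 0 in the wild-type library.

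RNA was sequenced from whole zebrafish larvae of the AB/TL strain at 5 days post fertilization. The lri35 mutant library was made from a pool of 20 homozygous mutant larvae, and the wild-type library from a pool of 20 of their wild-type siblings. The series title spells the allele lri35 and the sample labels spell it lir35, and neither names the gene it affects. The question was how expression differs between mutants and siblings. Each genotype has a single library and no replicate. Every difference therefore compares 2 libraries, and genotype, pool and library cannot be told apart. No test across samples and no standard deviation could be computed.

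Mitochondria pass electrons from NADH and succinate to oxygen through complexes I to IV, and complex V (ATP synthase) uses the resulting proton gradient to make ATP. Complexes I, III, IV and V are built from subunits of both genomes, while complex II, which is also succinate dehydrogenase of the citric acid cycle, is wholly nuclear. In vertebrates the mitochondrial genome is transcribed as long precursors of each strand that are then cut into single RNAs, and mt-nd6 is the only protein gene read from the light strand. Muscle, heart and transporting epithelia are known for high levels of these genes.

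Summed over all rows, the deposited levels came to 874244 FPKM in the mutant library and 875340 FPKM in the wild-type library. Absolute depth is unknown. A rough guide came from 350 rows above 0 in both libraries and averaging 0.3 FPKM or less. Among them the commonest ratio of mutant to wild-type values fell in the class around 0.785 (classes of 0.1 on the log2 scale). Only 40% of these rows lay within 0.1 of it on that scale. If such rows hold equally few fragments in both libraries, the mutant library has about 1.27 times the depth of the wild-type library. The difference used throughout is log2 of (mutant FPKM + 1) over (wild-type FPKM + 1), and ratios of single genes are plain ratios of FPKM. Over all 19112 genes averaging 1 FPKM or more the median difference was -0.01, and over the 1653 averaging 50 FPKM or more it was 0.03.

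All 13 protein genes of the mitochondrial genome were higher in the mutant library, 12 of them by 1.14 to 1.30-fold and mt-nd6 by 1.02-fold. Together they held 13.6% of all FPKM in the mutant library and 11.2% in the wild-type library. Nuclear subunit genes differed less. Their median difference was 0.08, against 0.31 for the mitochondrial genes, and their summed FPKM was 1.05 times the wild-type value, against 1.22 times for the mitochondrial genes. Summed mitochondrial over summed nuclear subunit FPKM was 5.89 in the mutant library and 5.08 in the wild-type library.

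**Figure D1:**
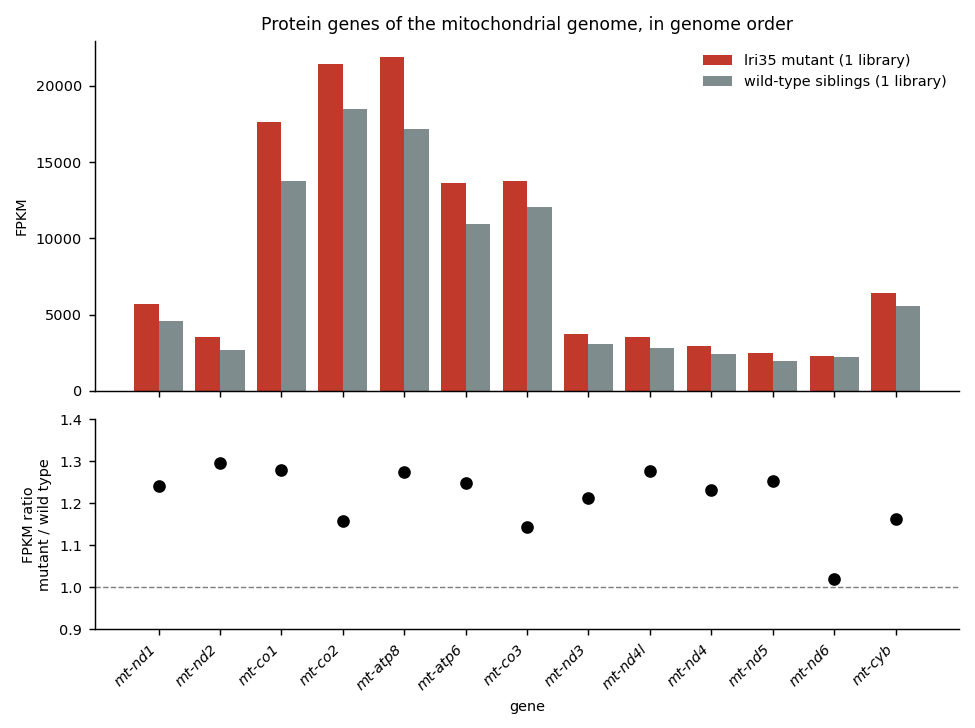
FPKM of the 13 mitochondrial protein genes in the lri35 mutant library (red bars) and the wild-type library (grey bars), with the ratio of mutant to wild type below, each from 1 library; genes that share a deposited region follow the usual vertebrate order. Every red bar is taller than its grey neighbour, and the ratio of mt-nd6 (1.02) lies below the other 12, which span 1.14 to 1.30.

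Of the 7 mitochondrial genes of complex I, the NADH dehydrogenase, the most abundant was mt-nd1, at 5691 FPKM in the mutant library and 4588 FPKM in the wild-type library (ratio 1.24). The mt-nd2 gene had the highest ratio of all 13, at 3503 FPKM in the mutant library and 2703 FPKM in the wild-type library (1.30). The mt-nd3 gene stood at 3728 FPKM in the mutant library and 3072 FPKM in the wild-type library (1.21). These subunits form part of the membrane arm that moves protons.

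The overlapping genes mt-nd4l and mt-nd4 stood at ratios of 1.28 and 1.23. Their levels were 3542 and 2934 FPKM in the mutant library, and 2776 and 2382 FPKM in the wild-type library. The neighbours mt-nd5 and mt-nd6, which the deposited table places in 1 region (MT:12897-15232 on Zv9), did not differ alike. The heavy-strand gene mt-nd5 stood at 2455 FPKM in the mutant library and 1957 FPKM in the wild-type library (1.25). The light-strand gene mt-nd6 stood at 2282 FPKM in the mutant library and 2239 FPKM in the wild-type library (1.02). The sources used here do not say whether reads were counted by strand, so how overlapping genes divided their reads is unknown.

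The single mitochondrial gene of complex III, mt-cyb, encodes cytochrome b and stood at 6445 FPKM in the mutant library and 5540 FPKM in the wild-type library (1.16). Complex IV, cytochrome c oxidase, has its catalytic core from mt-co1, mt-co2 and mt-co3. The mt-co1 gene stood at 17606 FPKM in the mutant library and 13758 FPKM in the wild-type library (1.28). The mt-co2 gene stood at 21409 FPKM in the mutant library and 18479 FPKM in the wild-type library (1.16). The mt-co3 gene stood at 13758 FPKM in the mutant library and 12022 FPKM in the wild-type library (1.14). The ratios of the 3 complex IV genes therefore differed among themselves, with mt-co1 above the other 2.

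In ATP synthase, mt-atp8 and mt-atp6 encode membrane subunits. The mt-atp8 gene was the most abundant of all in the mutant library, at 21861 FPKM, against 17163 FPKM in the wild-type library (1.27), where mt-co2 was higher. The mt-atp6 gene stood at 13646 FPKM in the mutant library and 10931 FPKM in the wild-type library (1.25). They share a deposited region with mt-co3 (MT:8894-10589). Scaling to length is least certain for very short genes such as mt-atp8, so its level is the least comparable of the 13. The order of the levels was otherwise alike in the 2 libraries, with the genes of complexes IV and V highest, then mt-cyb and mt-nd1, then the other complex I genes; mt-nd6 stood last in the mutant library and mt-nd5 last in the wild-type library.

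Of the 13 mitochondrial protein genes, 9 were at least 1.2-fold higher in the mutant library and 0 were at least 1.2-fold lower. Of all 19112 genes, 22.5% were higher and 24.7% lower by the same rule. Scatter falls with abundance, and among the 141 genes outside the mitochondrial genome averaging 1000 FPKM or more, 2.13% were higher and 8.51% lower by that rule, 46.8% lay above 0, and the median difference was -0.02. None of the 13 was past 2-fold, where 2.87% of all genes were higher and 3.12% lower. The 13 genes are cut from shared precursors and are not independent of each other, so their common direction is 1 observation on these 2 pools.

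Outside its protein genes, the mitochondrial genome had only 2 rows above 0, and neither was higher in the mutant library. The deposited table lists 24 other rows there, all without an assigned gene symbol, of which 22 were listed at 0 in both libraries. The row at MT:1020-1971, of 952 bases, stood at 255 FPKM in the mutant library and 365 FPKM in the wild-type library (1.44-fold lower in the mutant library). The row at MT:2043-3725, of 1683 bases, stood at 286 FPKM in the mutant library and 304 FPKM in the wild-type library (1.06-fold lower). Both lie before mt-nd1 on the genome, and in these libraries both were far less abundant per length than any of the protein genes. What these rows encode was not assigned. Whether their levels, and the rows at 0, reflect the larvae or what the library preparation captured was not tested.

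**Figure D2:**
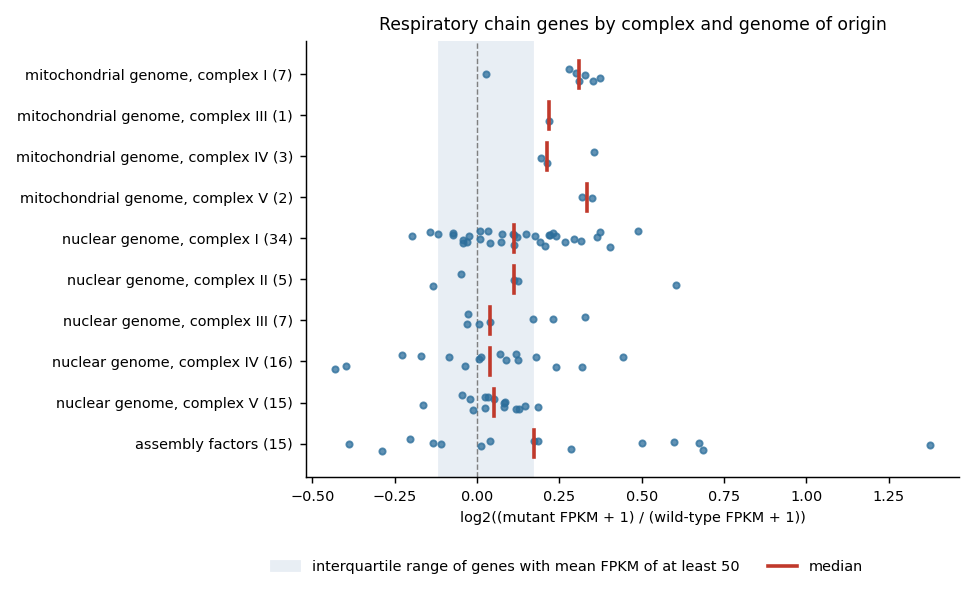
Difference between the lri35 mutant and the wild-type library (log2 of FPKM + 1) for 105 genes, by complex and genome of origin; each point is 1 gene, red ticks are medians, and the shaded band spans the interquartile range of genes averaging 50 FPKM or more (-0.11 to 0.17). Mitochondrial medians run from 0.21 to 0.33, those of nuclear subunits from 0.04 to 0.11, and that of the nuclear assembly factors is 0.17, with sdhaf1 as the point at 1.37.

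Nuclear genes of complex I were mostly a little higher in the mutant library. Of 34 measured, 25 lay above 0 and 9 below, where 49.1% of all genes and 56.6% of those averaging 50 FPKM or more lay above 0. The median difference was 0.11. Past 1.2-fold, 7 were higher and 0 lower, where 14.2% of the genes averaging 50 FPKM or more were higher and 10.7% lower. The 7 include ndufa4, now counted with complex IV in mammals, and ndufa4l2, which averaged only 4.41 FPKM. Without this pair the share of higher genes lies nearer to 14.2%. None of the 34 genes reached 2-fold, where 2.48% of the genes averaging 50 FPKM or more did in either direction. Their summed level was 5143 FPKM in the mutant library and 4776 FPKM in the wild-type library, a ratio of 1.08.

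The largest difference among abundant nuclear complex I genes was that of ndufa5, an accessory subunit of the arm that faces the matrix, at 193 FPKM in the mutant library and 137 FPKM in the wild-type library (1.41). The ndufa1 gene, which encodes a small membrane subunit, was the most abundant nuclear complex I gene in the mutant library, at 316 FPKM, against 245 FPKM in the wild-type library (1.29). The low-level ndufa4l2, named for a paralog of ndufa4, stood at 5.16 FPKM in the mutant library and 3.66 FPKM in the wild-type library. The other 4 past 1.2-fold were ndufv3, ndufa7, ndufab1a and ndufa4, at ratios of 1.30, 1.25, 1.23 and 1.21. The symbol ndufv3 summed a pair of rows at different places on chromosome 9, at ratios of 1.35 and, for the less abundant row, 1.06. The ndufa4 product is now counted with complex IV in mammals.

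At the other end, ndufb6 stood at 140 FPKM in the mutant library and 160 FPKM in the wild-type library (1.15-fold lower in the mutant library). The ndufa8 gene stood at 116 FPKM in the mutant library and 128 FPKM in the wild-type library. The 7 measured core subunits, most of which carry the flavin, iron-sulfur clusters or the quinone site, had a median difference of 0.08. The highest of them was ndufs8a, at a ratio of 1.17. The 27 counted as accessory, with ndufa4 and ndufa4l2, had a median of 0.12, and all 7 genes past 1.2-fold were among them. This split changed with the scaling, with 0 to 2 core genes and 6 to 8 accessory genes at least 1.2-fold higher. Core and accessory genes overlapped widely.

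Complex II had 1 gene that stood apart. The sdhdb gene, which encodes the small membrane anchor subunit D, was at 114 FPKM in the mutant library and 74.6 FPKM in the wild-type library (1.53). It had the largest difference of all 77 measured nuclear subunit genes, at 0.60. The catalytic flavoprotein gene sdha was at 90.9 FPKM in the mutant library and 99.8 FPKM in the wild-type library, and the iron-sulfur gene sdhb at 103 FPKM in the mutant library and 107 FPKM in the wild-type library. The other anchor gene, sdhc, stood at 273 FPKM in the mutant library and 251 FPKM in the wild-type library. The copy of sdhdb named sdhda was low, at 1.47 FPKM in the mutant library and 1.28 FPKM in the wild-type library, so sdhdb held 98.7% of the summed level of this pair in the mutant library and 98.3% in the wild-type library.

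In complex III, the core proteins were nearly equal in the 2 libraries, while 3 other subunits were higher in the mutant library. The core protein genes uqcrc1, uqcrc2a and uqcrc2b stood at 200, 76.9 and 145 FPKM in the mutant library, and at 205, 78.5 and 144 FPKM in the wild-type library, and the sign of these small differences changed with the scaling. The uqcrb gene, whose product binds quinone beside cytochrome b, stood at 382 FPKM in the mutant library and 304 FPKM in the wild-type library (1.26). The uqcrq gene stood at 645 FPKM in the mutant library and 573 FPKM in the wild-type library (1.13).

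The Rieske iron-sulfur protein symbol uqcrfs1 summed to 90.8 FPKM in the mutant library and 77.3 FPKM in the wild-type library, over a pair of rows at different places on chromosome 7. These went different ways. One was at 70.1 FPKM in the mutant library and 52.8 FPKM in the wild-type library, and the other at 20.7 FPKM in the mutant library and 24.5 FPKM in the wild-type library. Over the 7 genes of complex III the median difference was 0.04 and 1 was past 1.2-fold, which is near the 14.2% higher among genes averaging 50 FPKM or more.

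**Figure D3:**
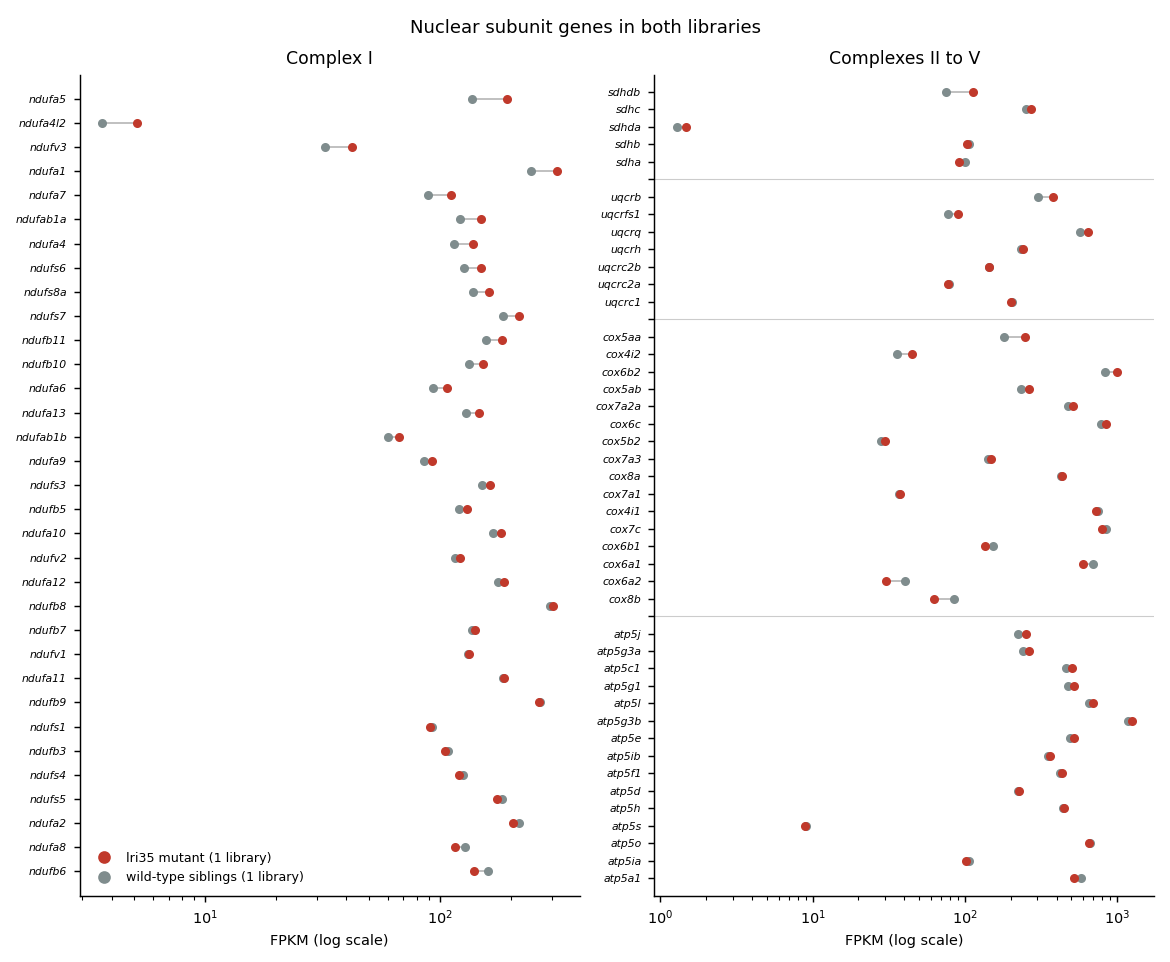
FPKM on a log scale of 33 of the 34 measured nuclear genes of complex I (left) and of 5, 7, 16 and 15 genes of complexes II, III, IV and V (right, top to bottom), in the lri35 mutant library (red) and the wild-type library (grey), 1 library each. Genes are ordered by difference within each complex; red lies to the right of grey for sdhdb (114 against 74.6) and to the left for cox8b (62.5 against 84.6).

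Nuclear genes of complex IV showed the widest spread of the 5 nuclear complexes, from -0.43 to 0.44, around a median of 0.04. Of 16 genes, 10 lay above 0 and 6 below, and past 1.2-fold 2 were higher and 2 lower. These counts are near the background. Among genes averaging 50 FPKM or more, 56.6% lay above 0, and past 1.2-fold 14.2% were higher and 10.7% lower. The 2 lower genes were cox8b, at 62.5 FPKM in the mutant library and 84.6 FPKM in the wild-type library (1.35-fold lower in the mutant library), and cox6a2, at 30.2 FPKM in the mutant library and 40.2 FPKM in the wild-type library (1.33-fold lower). In mammals, genes of these names encode the isoforms of heart and skeletal muscle. Another gene so known in mammals, cox7a1, was at 37.2 FPKM in the mutant library and 37.1 FPKM in the wild-type library, so the 3 did not differ alike. A current name table gives the cox6a2 row the symbol COX6A1, so its isoform identity is uncertain.

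The counterparts of these genes were much more abundant. The cox6a1 gene stood at 596 FPKM in the mutant library and 699 FPKM in the wild-type library, also lower in the mutant library (1.17-fold). The cox8a gene stood at 433 FPKM in the mutant library and 429 FPKM in the wild-type library, and cox7a2a at 516 FPKM in the mutant library and 473 FPKM in the wild-type library. As a share of its pair, cox8b held 12.6% in the mutant library and 16.5% in the wild-type library, and cox6a2 held 4.83% in the mutant library and 5.44% in the wild-type library.

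The 2 higher genes of complex IV were cox5aa and cox4i2. The symbol cox5aa stood at 247 FPKM in the mutant library and 181 FPKM in the wild-type library (1.36), over 2 rows within a region that holds 5 other measured genes. Its copy cox5ab stood at 264 FPKM in the mutant library and 233 FPKM in the wild-type library (1.13). The cox4i2 gene, named for the isoform of subunit 4 that is induced by low oxygen in mammals, stood at 44.7 FPKM in the mutant library and 35.7 FPKM in the wild-type library (1.25). The common isoform cox4i1 was at 731 FPKM in the mutant library and 750 FPKM in the wild-type library.

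The most abundant nuclear gene of complex IV was cox6b2, at 991 FPKM in the mutant library and 839 FPKM in the wild-type library (1.18). Its counterpart cox6b1 stood at 136 FPKM in the mutant library and 153 FPKM in the wild-type library. The share of cox6b2 in the pair was 87.9% in the mutant library and 84.6% in the wild-type library. The small subunit genes cox6c and cox7c stood at 847 and 797 FPKM in the mutant library, and at 780 and 847 FPKM in the wild-type library.

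Nuclear ATP synthase genes lay close to equality. All 15 lay between -0.16 and 0.18, none was past 1.2-fold in either direction (14.2% of genes averaging 50 FPKM or more were higher and 10.7% lower), and the median was 0.05. These are also the most abundant nuclear genes of the chain, with a median level of 446 FPKM in the mutant library and 438 FPKM in the wild-type library. The catalytic head gene atp5a1 was lowest, at 518 FPKM in the mutant library and 580 FPKM in the wild-type library (1.12-fold lower), while atp5c1, the gene of the central rotor stalk, stood at 507 FPKM in the mutant library and 464 FPKM in the wild-type library. The 4 head and central stalk genes of the set summed to 1.01 times, and the 4 peripheral stalk genes to 1.02 times, the wild-type value. The head sum leaves out the catalytic beta subunit gene ATP5B, whose upper-case symbol the name pattern does not match. That gene stood at 675 FPKM in the mutant library and 700 FPKM in the wild-type library.

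The proton-carrying c ring is encoded by 3 genes, all slightly higher in the mutant library. The atp5g3b gene was the most abundant nuclear gene of the whole set, at 1247 FPKM in the mutant library and 1178 FPKM in the wild-type library (1.06). The atp5g1 gene stood at 519 FPKM in the mutant library and 478 FPKM in the wild-type library, and atp5g3a at 265 FPKM in the mutant library and 239 FPKM in the wild-type library. Of the pair atp5g3a and atp5g3b, atp5g3b held 82.5% in the mutant library and 83.1% in the wild-type library. The files do not show how reads shared by such near-identical copies were assigned.

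Other copies named a and b kept their proportions to within a few percentage points. The atp5ib gene held 78.0% of its pair in the mutant library and 76.8% in the wild-type library, uqcrc2b held 65.3% in the mutant library and 64.7% in the wild-type library, and ndufab1b held 30.79% in the mutant library and 32.97% in the wild-type library. The cox5ab gene held 51.7% in the mutant library and 56.2% in the wild-type library.

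Assembly factors scattered most, at low levels. Of 15, 10 lay above 0 and 5 below, with a median difference of 0.17, and past 1.2-fold 6 were higher and 2 lower. Among all genes, 49.1% lay above 0, and past 1.2-fold 22.5% were higher and 24.7% lower. The sdhaf1 gene, which encodes a factor that helps to insert iron-sulfur clusters into complex II, was the only one of all 105 measured genes past 2-fold, at 8.78 FPKM in the mutant library and 2.77 FPKM in the wild-type library (3.17). Of all genes, 5.99% were past 2-fold in either direction. The complex I factors ndufaf4 and ndufaf6 stood at 15.5 and 5.20 FPKM in the mutant library, and at 9.25 and 2.89 FPKM in the wild-type library.

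Among the complex IV factors, cox17, which encodes a copper chaperone and was the most abundant, stood at 183 FPKM in the mutant library and 129 FPKM in the wild-type library (1.42). The cox14 gene stood at 56.95 FPKM in the mutant library and 37.3 FPKM in the wild-type library (1.53). The heme A synthesis genes cox10 and cox15 were closer to equality, at ratios of 1.13 and 1.15. Lower in the mutant library were ndufaf5, at 12.75 FPKM in the mutant library and 16.99 FPKM in the wild-type library, and sdhaf2, which helps to attach flavin to sdha, at 28.6 FPKM in the mutant library and 35.2 FPKM in the wild-type library.

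The authors' deposited table tested 107 of the 109 rows and called 0 of them, where it called 0.124% of all 14574 tested rows. In the authors' deposited table, 2 rows have a p-value under 0.05 before correction, sdhaf1 (p = 0.0219) and sdhdb (p = 0.04605), both with a q of 0.994. Over all tested rows of the authors' deposited table this share is 2.94%. These p-values compare 2 libraries.

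Other genes that serve the chain were taken from 9 written lists. Mitochondrial ribosomal proteins, which form the ribosome that translates the 13 mitochondrial messages, were the most one-sided. Of 59 measured, 50 lay above 0, and past 1.2-fold 25 were higher and 0 lower, with a median of 0.22. Among 6415 genes averaging 10 to 100 FPKM, a range that takes in the levels of this list, 52.6% lay above 0, 19.2% were higher and 17.4% lower past 1.2-fold, and the median was 0.02. The largest difference was that of mrpl27, at 31.2 FPKM in the mutant library and 12.9 FPKM in the wild-type library, and the most abundant members were mrpl32, at 76.9 FPKM in the mutant library and 83.6 FPKM in the wild-type library, and mrpl12, at 74.6 FPKM in the mutant library and 55.9 FPKM in the wild-type library.

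Genes of mitochondrial DNA upkeep, transcription and translation had a median of 0.14 over 27 genes. Of these, 19 lay above 0, where 49.1% of all genes did. Past 1.2-fold, 7 were higher and 4 lower, where 22.5% of all genes were higher and 24.7% lower. The translation factor genes tsfm and gfm1 stood at 28.5 and 13.6 FPKM in the mutant library, and at 17.5 and 9.47 FPKM in the wild-type library. The lowest members were mtrf1, at 0.997 FPKM in the mutant library and 4.22 FPKM in the wild-type library, and the polymerase subunit gene polg2, at 3.24 FPKM in the mutant library and 5.98 FPKM in the wild-type library. The factor gene tfam, which packs mitochondrial DNA and starts its transcription, stood at 17.7 FPKM in the mutant library and 16.5 FPKM in the wild-type library.

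The list built around the mobile electron carriers lay close to equality. It also holds cyc1, the gene of the complex III subunit cytochrome c1, which the name pattern does not match. The cyc1 gene stood at 188 FPKM in the mutant library and 178 FPKM in the wild-type library. Cytochrome c and coenzyme Q synthesis genes had a median of 0.04 over 13 genes, with cytochrome c itself (cycsb) at 407 FPKM in the mutant library and 351 FPKM in the wild-type library and coq4 at 6.31 FPKM in the mutant library and 12.1 FPKM in the wild-type library. Further assembly factors and regulators of complexes I and III to V had a median of 0.16 over 21 genes. Of these, 17 lay above 0, where 49.1% of all genes did. Past 1.2-fold, 8 were higher and 2 lower, where 22.5% of all genes were higher and 24.7% lower. The cmc2 gene stood at 34.1 FPKM in the mutant library and 17.3 FPKM in the wild-type library. The coa5 gene stood at 18.1 FPKM in the mutant library and 29.6 FPKM in the wild-type library. The list headed ADP/ATP and phosphate carriers had a median of -0.05 over 15 genes. Besides carriers and channels that exchange ADP, ATP and phosphate, it holds uncoupling proteins and mitochondrial creatine kinases. The main ADP/ATP carrier gene slc25a5 was at 4347 FPKM in the mutant library and 4316 FPKM in the wild-type library. Lowest of this list was the uncoupling protein gene ucp1, at 130 FPKM in the mutant library and 239 FPKM in the wild-type library (1.84-fold lower). Highest was slc25a6, at 13.2 FPKM in the mutant library and 9.08 FPKM in the wild-type library (1.45).

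**Figure D4:**
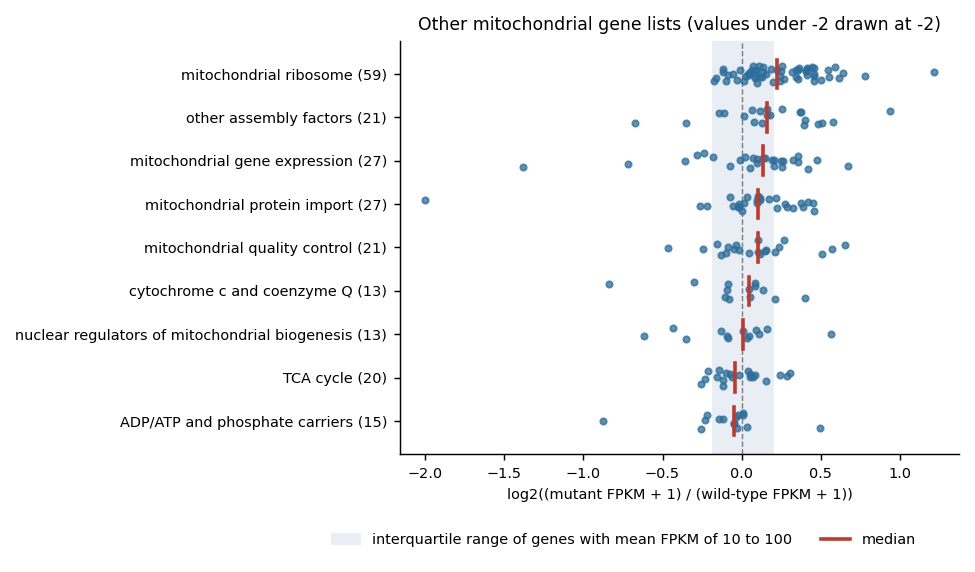
Difference between the lri35 mutant and the wild-type library (log2 of FPKM + 1) for 9 lists of other mitochondrial genes, 1 point per measured gene; red ticks are medians and the band spans the interquartile range of genes averaging 10 to 100 FPKM (-0.18 to 0.20). The mitochondrial ribosome has the highest median (0.22). The list headed ADP/ATP and phosphate carriers, which also holds uncoupling proteins and creatine kinases, has the lowest (-0.05). The tomm5 gene, listed at 0 in the mutant library, is drawn at the left edge.

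In whole larvae, a difference in RNA per cell and a difference in the number of cells of a type cannot be told apart. Markers of fast muscle summed to 65877 FPKM over 14 genes in the mutant library and 65869 FPKM in the wild-type library. Of these, 6 lay above 0 and 8 below, with a median of -0.06, where 49.1% of all genes lay above 0. Single genes differed more than the sum, from myhz2 (1.35-fold lower in the mutant library) to tnnt3a (1.36-fold higher). Markers of slow muscle and heart summed to 1183 FPKM over 11 genes in the mutant library and 1105 FPKM in the wild-type library. Of the 10 measured, 6 lay above 0 and 4 below. Markers of ionocytes, the ion-pumping cells of the skin, summed to 526 FPKM in the mutant library and 540 FPKM in the wild-type library. Of these 9 genes, 5 lay above 0 and 4 below. Past 1.2-fold, 0 were higher and 2 were lower, foxi3b (1.30-fold) and atp1a1a.4 (1.25-fold). Among all genes, 22.5% were higher and 24.7% lower by that rule. All 10 exocrine pancreas markers and all 9 red blood cell markers were lower in the mutant library. The pancreas markers summed to 3982 FPKM in the mutant library and 9727 FPKM in the wild-type library, and the red blood cell markers to 942 FPKM in the mutant library and 1865 FPKM in the wild-type library. All 7 enterocyte markers were lower as well and summed to 2612 FPKM in the mutant library and 3291 FPKM in the wild-type library. Markers of hepatocytes, neurons and photoreceptors summed to 1.03, 0.972 and 0.909 times the wild-type value. Their median differences were -0.04, -0.05 and -0.10, and the sign of the hepatocyte median changed with the scaling. Of the 10 hepatocyte markers, 4 lay above 0 and 6 below, and apoa2 alone held 7038 of their 9984 FPKM in the mutant library. The apoa2 gene was 1.15-fold higher in the mutant library, so the hepatocyte sum mostly follows this gene. The fabp10a gene stood at 485 FPKM in the mutant library and 887 FPKM in the wild-type library (1.83-fold lower). Among neuron markers 2 lay above 0 and 6 below, and among photoreceptor markers 3 above and 7 below. None of the markers of muscle, heart, ionocytes, pancreas, red blood cells and enterocytes was listed at 0 in either library, and their part in the respiratory chain differences was not tested.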

How the data were processed

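A pair of pooled libraries of whole larvae was compared. CASAVA, Bowtie and the build Zv9 appear in the submitters' processing notes, without versions. The sources used here do not give the tool that made the table, the annotation or the treatment of shared reads. The layout of the deposited table is that of Cuffdiff, so its values were read as FPKM computed by the authors. That unit is inferred. Every p-value and q-value is the authors' own, from the deposited table. Its fold change and test statistic columns, damaged by spreadsheet errors, were left out. Columns of other samples numbered 0. Deposited starts on the mitochondrial genome were read as 0-based, since adjoining regions share a boundary, and are printed 1-based.

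Rows of a symbol were summed, a pseudocount of 1 FPKM was added, and genes averaging 1 FPKM or more were kept (Python 3.11.15, pandas 2.3.3, NumPy 2.4.6). Differences of 2-fold and 1.2-fold on this scale were counted. The arithmetic was tested on simulated data. Of the member rows, 99 of 109 were found in a current name table, and 98 of these carry a current symbol of the same pattern; the exception is atp5s. Genes were named by rule: all mitochondrial genes, every gene past 2-fold or with p under 0.05, the 3 highest, 3 lowest (mean of at least 5 FPKM) and 3 most abundant of each nuclear group, gene pairs, and 2 of each kind per other list. Not every gene under this rule is printed, so the highest or lowest of a group may be missing. Any gene outside the rule was named after its values were seen. Among them are the remaining complex I genes past 1.2-fold, ndufaf6, cox10, cox15, tfam and the complex IV isoforms. The subgroups of complexes I, III and V were chosen after the files were seen. Members, lists and alternatives were chosen with earlier results of these data known. The values of 1 complex I gene are not reported here. No sequences are printed.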

Additional observations from a re-analysis of the deposited data

How the results depend on the processing

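Results were recomputed under 9 other settings (pseudocount, filter, scaling, row choice, letter case) and 1 chosen after seeing the data, the match of the name pattern to current symbols by Ensembl ID. The median difference of the mitochondrial genes ran from 0.29 to 0.35 and that of nuclear subunits from 0.064 to 0.12. Of 70 recomputed values, 68 stayed within 0.1 on the log2 scale or, for counts, within 1.5-fold. That tolerance is wider than the nuclear subunit median itself (0.08). Pseudocount, filter, row choice and letter case could hardly move the abundant mitochondrial genes, so the tally is a weak check of these medians. With a pseudocount of 5 FPKM, 0 genes were 2-fold higher, because sdhaf1 is low. With current symbols, 8 genes were at least 1.2-fold lower, against 4, since more genes entered. The number of the 77 nuclear subunit genes above 0 ran from 49 to 61 with the scaling. Medians of the core proteins of complex III, of the citric acid cycle list and of the nuclear regulators changed sign with the scaling. So did those of the hepatocyte and ionocyte markers. Medians of the 13 mitochondrial genes and of each nuclear complex did not change sign. With a mean of at least 5 FPKM required, the assembly factor median was 0.11, against 0.17 in the main setting. The complex II median was then 0.04, against 0.11. The median of all genes moved to at most 0.03. No paired analysis was possible because each genotype has 1 library. Without counts, no counting interval or floor could be given.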

Other observations

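The name pattern leaves out 28 rows that carry an upper-case symbol or a current symbol of the same kind, and 24 of these reached a mean of 1 FPKM. The complex III gene cyc1, whose symbol is of another kind, is not among them. ATP5B, the catalytic beta subunit of ATP synthase, stood at 675 FPKM in the mutant library and 700 FPKM in the wild-type library. Its difference was -0.05. Low-level rows named for other ATP synthase subunits differed more, with ATP5J (3 of 4) at 10.5 FPKM in the mutant library and 6.28 FPKM in the wild-type library and ATP5J2 at 0.655 FPKM in the mutant library and 1.89 FPKM in the wild-type library. COX5B (2 of 3) stood at 588 FPKM in the mutant library and 639 FPKM in the wild-type library. The complex I genes NDUFB1 and NDUFB2 were at 207 and 150 FPKM in the mutant library, and at 166 and 123 FPKM in the wild-type library, while NDUFC2 stood at 260 FPKM in the mutant library and 328 FPKM in the wild-type library. The assembly factor gene COX19 stood at 11.2 FPKM in the mutant library and 5.74 FPKM in the wild-type library. All were picked with their values known.

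The mitochondrial import list had a median of 0.10 over 27 genes. Of these, 18 lay above 0, where 49.1% of all genes did. Past 1.2-fold, 8 were higher and 2 lower, where 22.5% of all genes were higher and 24.7% lower. The import motor gene grpel1 stood at 79.4 FPKM in the mutant library and 57.5 FPKM in the wild-type library. The outer membrane translocase gene tomm5 was listed at 0 in the mutant library and at 25.4 FPKM in the wild-type library. The quality control list had a median of 0.10 over 21 genes. In that list the protease gene clpp stood at 55.2 FPKM in the mutant library and 34.8 FPKM in the wild-type library, the chaperonin gene hspe1 at 330 FPKM in the mutant library and 222 FPKM in the wild-type library, and opa1, of inner membrane fusion, at 8.32 FPKM in the mutant library and 11.9 FPKM in the wild-type library.

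The citric acid cycle list, which also holds pyruvate dehydrogenase and pyruvate carboxylase genes, had a median of -0.04 over 20 genes. None was past 2-fold, where 5.99% of all genes were in either direction, a share at which few of 20 would pass. The mdh2 gene stood at 431 FPKM in the mutant library and 482 FPKM in the wild-type library. The idh3a gene stood at 91.9 FPKM in the mutant library and 74.3 FPKM in the wild-type library. Nuclear regulators of mitochondrial gene expression had a median of 0.01 over 13 genes. The coactivator gene ppargc1a stood at 3.76 FPKM in the mutant library and 6.29 FPKM in the wild-type library, the nuclear receptor gene esrra at 23.2 FPKM in the mutant library and 15.4 FPKM in the wild-type library, and nrf1 at 19.6 FPKM in the mutant library and 19.1 FPKM in the wild-type library.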
